A study of Mus musculus with 12 samples.

Results

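Transcripts of the T cell receptor complex and its proximal signalling proteins were followed in 3 CD4+ populations sorted from mouse thymus. The 33 genes were taken by symbol from the 55450 genes of the count table: the CD3 chains, the coreceptor and other surface receptors, kinases, adaptors, exchange factors, the Bcl10 and Malt1 pair, and negative regulators. All 33 were found and all 33 passed the filter on low counts, which 15361 genes passed. The mice were of 1 genotype, CD4-Cre x Foxp3-GFP, so the Tconv carried the same Cre, driven in cells that have expressed CD4, and the same green reporter of Foxp3 as the Tregs, and no target allele of the Cre is named. Eos+ Tregs were CD4+ Foxp3+ cells with both Ccr6 and Cxcr4, Eos- Tregs were CD4+ Foxp3+ cells with neither, and Tconv, conventional T cells, were CD4+ Foxp3- cells. Eos is the Ikaros family protein encoded by Ikzf4, and the gate used surface proteins in its place. There were 4 libraries per group, and neither an age nor the number of animals behind a group is in the labels used here. The p-values then rest on the spread of these samples, which may be technical.

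The T cell receptor has no enzyme activity of its own. When it binds a peptide on an MHC molecule, Lck, held by the coreceptor CD4, phosphorylates the CD3 and zeta chains, ZAP-70 docks there and phosphorylates the adaptors LAT and SLP-76, and these gather phospholipase C, exchange factors for Ras and Rac, and the route to NF-kB. Phosphatases, the kinase Csk, ubiquitin ligases and diacylglycerol kinases hold the same steps back. In the thymus the strength of this signal decides the fate of a thymocyte, and strong signals from self-peptides favour the Treg lineage.

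The libraries held 23.9 to 37.9 expected counts in units of 1e6, and levels are given as CPM, counts per 1e6 counts of the TMM-scaled total. Mean levels are written with the SD over 4 libraries (n = 4). The summed level of 7 alpha-beta T cell markers, which include Cd3e and Cd4, was 5137 to 5636 CPM with Eos+, 6054 to 6598 with Eos- and 7960 to 8713 in Tconv. Replicates 1 to 4 had Foxp3 at 55, 486, 819.6 and 655 CPM with Eos+ and 53.2, 653, 862 and 760.1 CPM with Eos-, against at most 3.42 in Tconv. The Treg libraries numbered 1 thus held little transcript of the marker they were sorted on. All 7 Treg markers, Foxp3 and Ikzf4 among them, summed to 3307, 3791, 4501 and 4659 CPM in replicates 1 to 4 with Eos+. With Eos- these sums were 2261, 2820, 3633 and 3863 CPM, beside 317 to 430 in Tconv. Ikzf4 itself was 314 ± 17.5 CPM with Eos+ and 170.5 ± 12.7 CPM with Eos-, 1.84-fold higher in the former (log2 change 0.88, SE 0.082, adjusted p = 2.29e-05), and 25.2 ± 2.22 CPM in Tconv. Markers of other cells also differed. The 10 B cell markers, mostly Ighm, summed to 1399 to 1833 CPM with Eos+, 177 to 474 with Eos- and 229 to 402 in Tconv. Of these markers 9 were tested, and all 9 had a log2 change above 0 in Eos+ against Eos- Tregs. Their changes ran from 2.33 to 4.125 with a median of 2.86. Of the 9, 4 (44.4%) were called higher, beside 9.82% of all tested genes. Pax5, 1 of the 10, was at 0.376 CPM or less in the Eos+ libraries. The 9 markers of CD4+ CD8+ double-positive thymocytes were highest in libraries numbered 1 or 2 and overlapped between the groups, with sums for replicates 1 to 4 of 509.8, 267, 194 and 194 CPM with Eos+, 527, 336, 201 and 167 with Eos- and 438, 449, 208 and 229.7 in Tconv. The 10 macrophage and dendritic cell markers summed to 16.3 to 115, 2.94 to 94.2 and 19.6 to 59.2 CPM in the same order of groups, the 8 NK and cytotoxic markers to 127 to 190.0, 53.5 to 123 and 119 to 428, and 5 of 6 gamma-delta and NKT markers found in the file to 26.7 to 64.7, 33.5 to 77.8 and 57.4 to 88. Of these markers of other cells, Ncr1 in Tconv was the only one without a count in a whole group. The part that such cells have in the results below was not tested.

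In Eos+ Tregs the transcripts of much of this machinery were lower than in Eos- Tregs: 14 of 33 members fell, 3 rose and 16 did not pass the test. Of all tested genes 16.3% were called, 6.45% lower and 9.82% higher, and among the 6692 genes at or above the level of the lowest member, Sos1, 10.5% were lower and 9.22% higher. The members' median log2 change was -0.31, beside 0.003 over all tested genes, and the members ran from -1.14 for Pag1 to 0.88 for Ubash3b. Against Tconv, Eos+ Tregs had 16 members lower and 3 higher, where 30.3% of all tested genes were called, 13% and 17.3% in those directions, and 18.8% and 18.8% of those at or above the level of Sos1. In Eos- Tregs against Tconv 6 members fell and 4 rose, where 14.6% of all genes were called, 5.89% lower and 8.76% higher, and 8.1% and 12.7% at or above the level of Sos1. The 4 higher members, 12.1% of the 33, are a share near that of all genes of such levels. The 4 libraries of one group did not overlap with those of the other for 18 members between the Treg groups, 21 in Eos+ Tregs against Tconv and 11 in Eos- Tregs against Tconv, beside 20%, 33.1% and 20.1% of all tested genes. The members' median log2 change was -0.29 and -0.069 in these comparisons, beside -0.008 and -0.012 over all tested genes. The 3 comparisons share libraries pairwise and are not separate evidence.

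The counts for Eos- Tregs against Tconv were the least settled. With the replicate number as a block, 10 members were lower and 8 higher there, where the calls over all tested genes also went from 2249 to 3300 (1564 lower and 1736 higher), and leaving out 1 library gave 3 to 7 lower and 1 to 5 higher. The call total of 10 fell to 6 or fewer without Eos- Treg replicate 2 (6), 3 (5) or 4 (5) or without Tconv replicate 1 (6), 2 (4) or 4 (6). Without the 3 libraries numbered 1, whose Treg members held little Foxp3, 15 members were called between the Treg groups, 19 in Eos+ Tregs against Tconv and 10 in Eos- Tregs against Tconv. With the block, 17 members were lower in Eos+ than in Eos- Tregs and 19 were lower in Eos+ Tregs than in Tconv, with 1486 and 2530 of all tested genes lower in the same fit.

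The changes were small for most members. In Eos+ against Eos- Tregs, 31 of 33 members had a log2 change of less than 1 in size, and Pag1 and Themis were the other two. The group means ran from Tconv at the top through Eos- Tregs to Eos+ Tregs in 19 of 33 members (57.6%), an order found in 23.7% of all tested genes. A further 8 members (24.2%, and 13.5% of all tested genes) had their highest mean in Eos- Tregs and their lowest in Eos+ Tregs. These orders are descriptions of means without a test. In sorted bulk RNA, fewer cells of a type and less RNA per cell cannot be told apart.

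**Figure D1:**
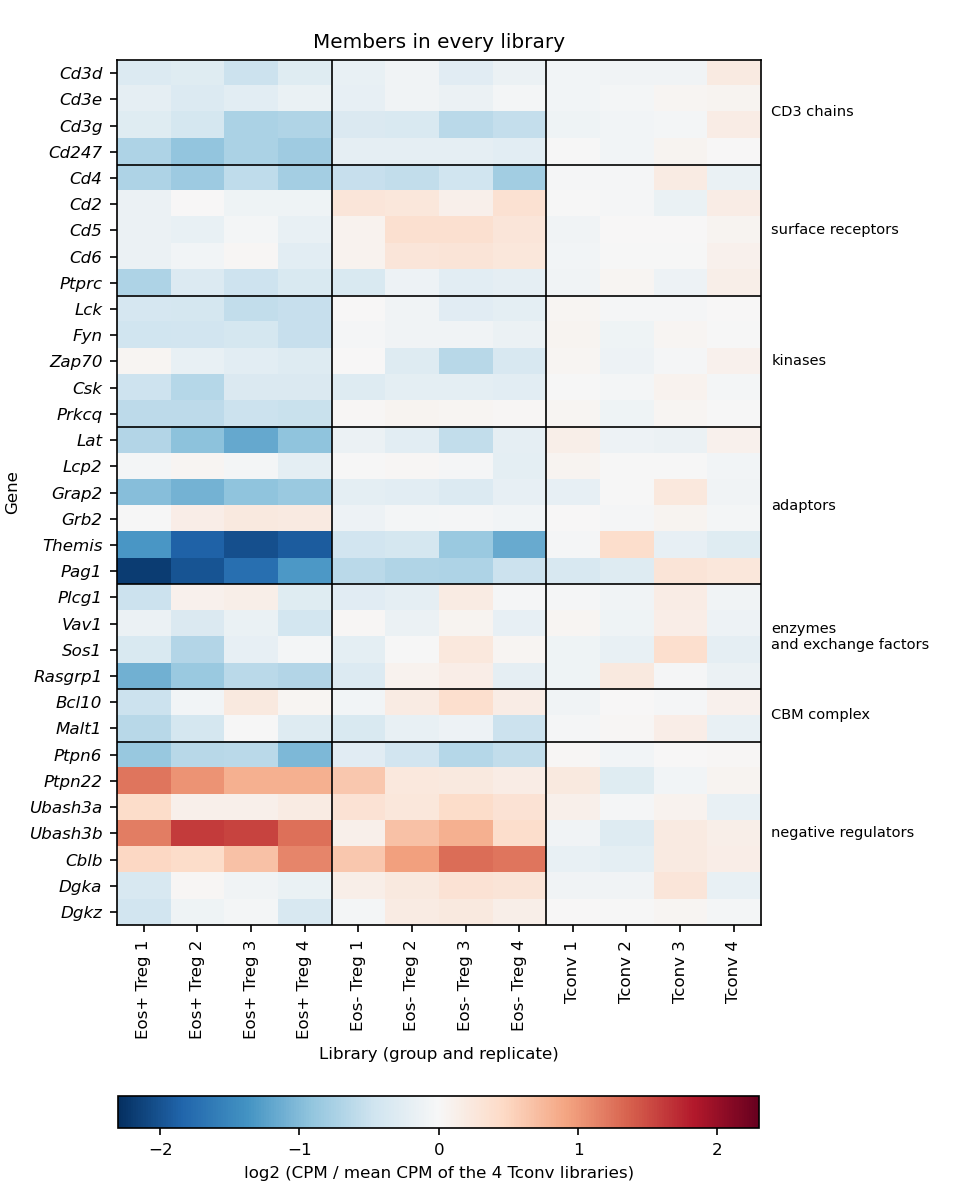
Level of each of the 33 members (rows, grouped by role) in each of the 12 libraries (columns), as log2 of its CPM over the mean CPM of the 4 Tconv libraries. Blue is below and red above the Tconv mean. Themis and Pag1 are the darkest blue rows in the Eos+ Treg libraries, and Ptpn22, Ubash3b and Cblb are the red rows.

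Of the 4 CD3 chains, 1 passed between the Treg groups. Cd247, which encodes the zeta chain that carries most of the phosphorylation sites of the complex, fell in Eos+ Tregs against Eos- Tregs. The delta, epsilon and gamma chains, Cd3d, Cd3e and Cd3g, did not pass in that comparison. Against Tconv all 4 chains were lower in Eos+ Tregs, and Cd3g and Cd247 in Eos- Tregs.

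To show the stretches in front of these genes, the windows from 250 bases before to 50 bases after the RefSeq start are printed 5′ to 3′ on the strand of the gene (build GRCm38.p6, the assembly of mm10). The 4 chain genes are shown because they make 1 complex and 1 of them passed between the Treg groups. Capitals mark matches, on either strand, to AGGAAG (a core of ETS family sites), TGTGGT (Runx), TGGGAA (Ikaros family) and CTTTGA (Tcf7 and Lef1).
Cd247, chr1:165788431-165788730, plus strand: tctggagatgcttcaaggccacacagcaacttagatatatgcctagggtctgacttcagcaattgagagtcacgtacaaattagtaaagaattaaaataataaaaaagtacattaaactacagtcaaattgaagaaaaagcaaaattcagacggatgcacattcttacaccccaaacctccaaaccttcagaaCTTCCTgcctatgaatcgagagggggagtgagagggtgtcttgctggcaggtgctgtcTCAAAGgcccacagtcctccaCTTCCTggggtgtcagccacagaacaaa
Cd3e, chr9:45009562-45009861, minus strand: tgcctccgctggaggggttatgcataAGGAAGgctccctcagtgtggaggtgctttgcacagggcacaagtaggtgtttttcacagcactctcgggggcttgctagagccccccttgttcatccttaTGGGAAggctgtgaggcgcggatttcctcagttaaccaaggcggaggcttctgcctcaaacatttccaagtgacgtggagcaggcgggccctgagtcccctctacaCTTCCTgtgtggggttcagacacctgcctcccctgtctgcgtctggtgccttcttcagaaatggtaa
Cd3d, chr9:44981536-44981835, plus strand: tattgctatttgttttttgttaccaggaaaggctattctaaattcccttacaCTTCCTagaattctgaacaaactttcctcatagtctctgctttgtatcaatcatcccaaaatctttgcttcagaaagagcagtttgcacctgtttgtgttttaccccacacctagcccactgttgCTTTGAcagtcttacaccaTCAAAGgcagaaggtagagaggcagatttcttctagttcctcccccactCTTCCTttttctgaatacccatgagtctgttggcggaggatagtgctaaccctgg
Cd3g, chr9:44980382-44980681, minus strand: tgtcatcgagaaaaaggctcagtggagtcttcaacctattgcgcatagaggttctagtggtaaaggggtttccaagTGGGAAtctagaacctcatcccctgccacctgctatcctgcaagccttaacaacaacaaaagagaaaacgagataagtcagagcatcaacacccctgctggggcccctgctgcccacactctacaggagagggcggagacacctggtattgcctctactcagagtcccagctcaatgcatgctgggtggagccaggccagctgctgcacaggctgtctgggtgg

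The AGGAAG core was present in the windows of Cd247, Cd3e and Cd3d, 2 times in each, and its letters were not in that of Cd3g. TGGGAA stood in the Cd3e and Cd3g windows, and CTTTGA in those of Cd247 and Cd3d. No matches overlapped each other in these windows. Among all 32851 windows of the same length, 35.4% held AGGAAG, 16.8% TGTGGT, 25.6% TGGGAA and 16% CTTTGA. Of the 33 members 28 had a window, 41 windows in all, of which 68.3% held AGGAAG, 12.2% TGTGGT, 31.7% TGGGAA and 17.1% CTTTGA. A match is a description of letters and not a bound site. Cd3g and Cd3d lie head to head on chromosome 9, with 1355 bases between the starts of the gene models.

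Cd247 (chr1:165788681-165877277, mm10) stood at 348, 304, 345 and 323 CPM over the Eos+ libraries, 492, 495, 494 and 479.7 over the Eos- libraries and 566, 547, 594 and 574 over Tconv, in the order of replicates 1 to 4, which holds for all such values below. Every Eos+ Treg library was below every Eos- Treg library, and these below every Tconv library. The level in Eos+ Tregs was 1.49-fold lower than in Eos- Tregs (log2 change -0.57, SE 0.064, adjusted p = 9.77e-05) and 1.73-fold lower than in Tconv (log2 change -0.79, SE 0.064, adjusted p = 1.72e-06). In Eos- Tregs against Tconv the change was -0.22 (adjusted p = 0.0372), a call that was lost without Eos- Treg replicates 2, 3 or 4 or Tconv replicates 1, 2, 3 or 4 (adjusted p = 0.0557 to 0.0934), and also when the 3 libraries numbered 1 were left out (adjusted p = 0.0821). The exons of Cd247 share 3007 bases with Pou2f1 on the other strand and 206 with Gm16565, at 36.2 and 4.68 CPM in Eos+ Tregs and 43.6 and 8.43 CPM in Eos- Tregs. The kit does not mark strand, so reads from shared positions cannot be told apart.

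Cd3e (chr9:44998740-45009627) was 858, 801, 839 and 891 CPM over the Eos+ libraries, 873, 938, 903 and 967 over the Eos- libraries and 951, 969, 1026 and 1038 over Tconv. The Treg groups overlapped, and all Eos+ Treg libraries lay below all Tconv libraries. Its change was -0.12 (adjusted p = 0.27) in Eos+ against Eos- Tregs and -0.23 (adjusted p = 0.0186) against Tconv, a call lost without Eos+ Treg replicate 2 (adjusted p = 0.0532). Cd3d (chr9:44981786-44987339) was 526, 536, 463 and 541 CPM over the Eos+ libraries, 580.4, 621, 543 and 598 over the Eos- libraries and 626, 618, 622 and 753 over Tconv. Eos+ Treg libraries were lower than those of Eos- Tregs without overlap, though the change of -0.18 (adjusted p = 0.181) did not pass, and against Tconv it was -0.34 (adjusted p = 0.00833). Cd3g (chr9:44969572-44980431) was 938, 858, 685 and 708 CPM over the Eos+ libraries, 909, 888, 745 and 777 over the Eos- libraries and 1065, 1095, 1109 and 1284 over Tconv. Its libraries overlapped between the Treg groups and lay below Tconv in both, with log2 changes of -0.51 (adjusted p = 0.00399) in Eos+ Tregs and -0.46 (adjusted p = 0.0168) in Eos- Tregs, where the latter call was lost without Tconv replicate 4 (adjusted p = 0.05).

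Within a library the ratio of 2 counts does not depend on scaling. There were 0.362 to 0.411 Cd247 counts for each Cd3e count in Eos+ Tregs, 0.496 to 0.564 in Eos- Tregs and 0.552 to 0.595 in Tconv. The Eos+ Treg range lay below both others, which overlapped. The Cd3d to Cd3e ratio overlapped between all groups, at 0.552 to 0.669, 0.602 to 0.665 and 0.607 to 0.725 in the same order. For Cd3g to Cd3e the ratios for replicates 1 to 4 were 1.09, 1.07, 0.816 and 0.795 with Eos+ and 1.04, 0.946, 0.826 and 0.803 with Eos-, beside 1.08 to 1.24 in Tconv. The Treg libraries numbered 1 and 2 were the higher ones in both Treg groups, and these were also the Treg libraries with the most of the double-positive thymocyte markers given above, whose part was not tested. Tconv did not share this order. Its highest ratio was in replicate 4, while its marker sums were 438 and 449 CPM in replicates 1 and 2 and 229.7 in replicate 4. These ratios carry no test. Per kilobase of merged exons, Cd247 had the lowest level of the chains in each group, at 61.9 ± 3.88 CPM per kb on average with Eos+, 92 ± 1.34 with Eos- and 107 ± 3.69 in Tconv, against 285 ± 19.9, 323 ± 18 and 361 ± 36.1 for Cd3d. Such lengths count every annotated exon and can be longer than any 1 transcript. For Cd247 the length of 5329 bases includes the 3007 bases shared with Pou2f1, so its place among the chains depends on the annotation.

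**Figure D2:**
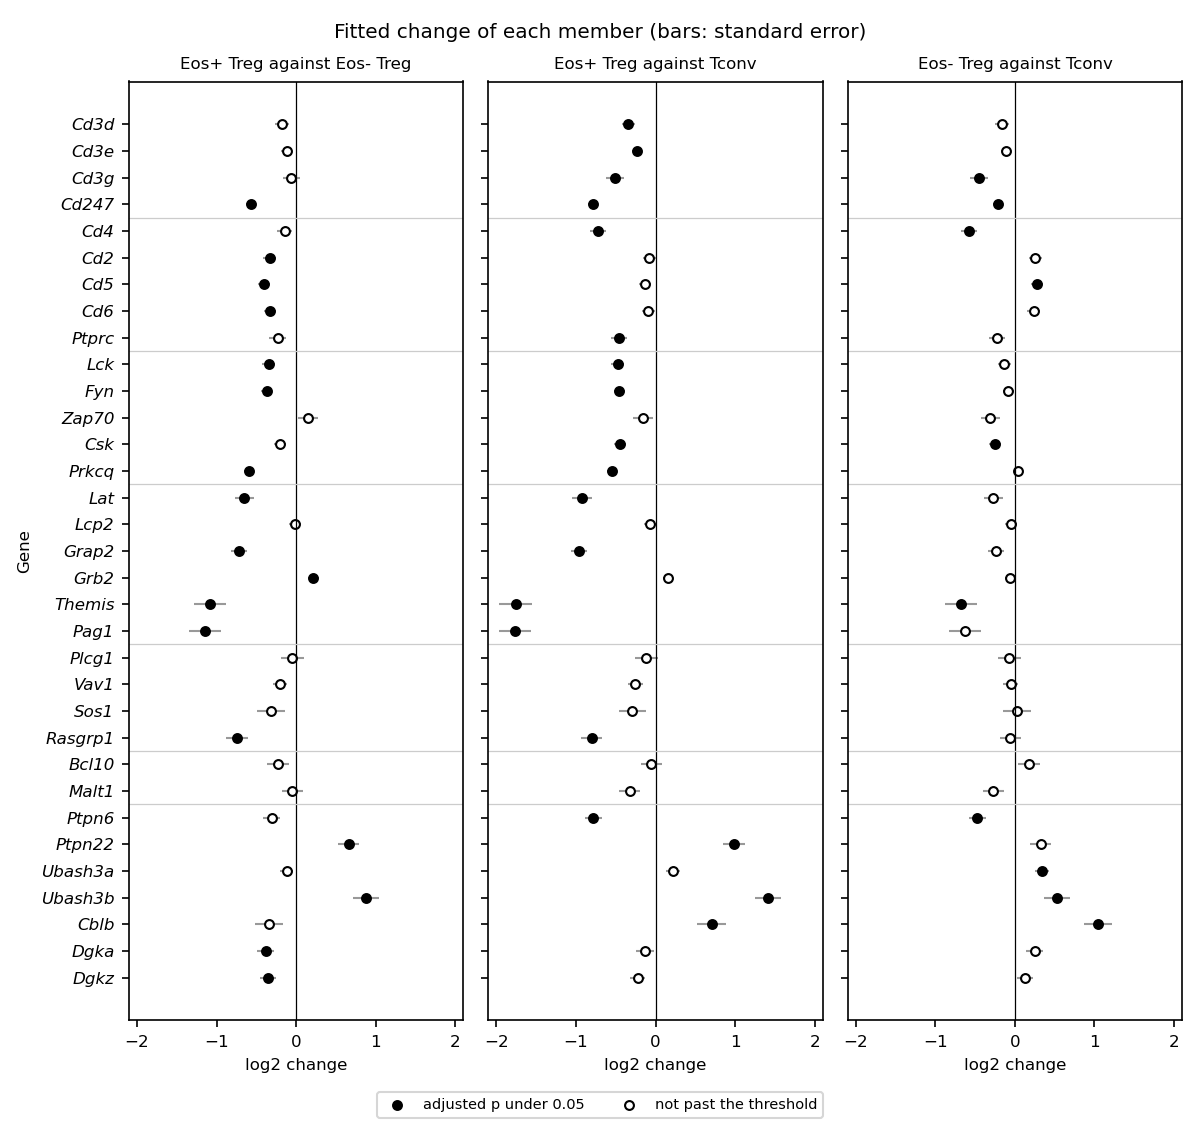
Fitted log2 change (x axis) of each of the 33 members (y axis, in the same order by role) in the 3 comparisons, with the standard error as a bar. Filled points passed an adjusted p of 0.05. In the left panel 14 filled points lie to the left of 0 and 3 to the right.

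Among the surface receptors, Cd2, Cd5 and Cd6 fell in Eos+ against Eos- Tregs, and Cd4 and Ptprc did not pass. Against Tconv, Cd4 and Ptprc were lower in Eos+ Tregs, and Cd4 was lower and Cd5 higher in Eos- Tregs. Cd4, the coreceptor for MHC class II on which all cells were gated as a protein, was 580.0, 532, 632 and 553 CPM over the Eos+ libraries, 661, 642, 692 and 545 over the Eos- libraries and 938, 932, 1079 and 849.7 over Tconv. Both Treg groups lay below Tconv without overlap, with log2 changes of -0.72 (adjusted p = 0.0001) in Eos+ Tregs and -0.58 (adjusted p = 0.00146) in Eos- Tregs. They overlapped with each other, with a change of -0.14 (adjusted p = 0.359).

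Cd5, a scavenger receptor family member that dampens the receptor signal and whose level is known to follow self-reactivity, was 626, 612, 671 and 612 CPM over the Eos+ libraries, 732, 884, 884 and 836 over the Eos- libraries and 649.8, 689, 692 and 724 over Tconv. Eos- Tregs were higher than both other groups without overlap, while Eos+ Tregs and Tconv overlapped. Cd5 was 1.32-fold lower in Eos+ than in Eos- Tregs (log2 change -0.40, SE 0.076, adjusted p = 0.00308), and 1.21-fold higher in Eos- Tregs than in Tconv (log2 change 0.28, SE 0.076, adjusted p = 0.0284). The latter call was lost without Eos- Treg replicates 2, 3 or 4 or Tconv replicates 1, 2 or 3 (adjusted p = 0.0614 to 0.0894). Eos+ Tregs against Tconv gave -0.13 (adjusted p = 0.239).

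Cd6, a relative of Cd5 that binds the adhesion molecule ALCAM, was 1184 ± 92.3 CPM on average with Eos+, 1486 ± 97.5 with Eos- and 1263 ± 61.9 in Tconv. Its change between the Treg groups was -0.33 (adjusted p = 0.0145). Cd2, an adhesion receptor that binds CD48 in mice, was 1170 ± 52.4, 1473 ± 98.4 and 1236 ± 112 CPM, with a change of -0.33 (adjusted p = 0.0157). Dropping the 3 libraries numbered 1 ended that call (adjusted p = 0.0739). For both, the Treg groups did not overlap. Eos- Tregs against Tconv gave 0.25 (adjusted p = 0.0593) for Cd2 and 0.23 (adjusted p = 0.071) for Cd6. Both passed as higher with the replicate block (adjusted p = 0.0125 and 0.027), Cd2 also without Eos- Treg replicate 3 or Tconv replicate 4 (adjusted p = 0.0287 to 0.0495) and Cd6 without Eos- Treg replicate 1 (adjusted p = 0.0275). DESeq2 called both (adjusted p = 0.0164 and 0.0178), as did limma-voom (adjusted p = 0.0319 and 0.039). Ptprc, the phosphatase CD45 that keeps Lck ready, was 2117 ± 257, 2489 ± 172 and 2906 ± 233 CPM and changed by -0.46 (adjusted p = 0.0043) in Eos+ Tregs against Tconv. Between the Treg groups its change was -0.23 (adjusted p = 0.148), with a call under the block (adjusted p = 0.0134). In Eos- Tregs against Tconv it was -0.22 (adjusted p = 0.175), and adjusted p = 0.0192 with the block.

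Of the 5 kinases, Lck, Fyn and Prkcq fell in Eos+ against Eos- Tregs, and Zap70 and Csk did not pass. Lck, the Src family kinase that starts the cascade, was 2005, 1983, 1779 and 1814 CPM over the Eos+ libraries, 2659, 2505, 2196 and 2259 over the Eos- libraries and 2711, 2594, 2599 and 2638 over Tconv. The lowest Eos- Treg library lay above the highest Eos+ Treg library, and Eos- Tregs overlapped with Tconv. Lck was 1.27-fold lower in Eos+ than in Eos- Tregs (log2 change -0.34, SE 0.082, adjusted p = 0.0124) and 1.39-fold lower than in Tconv (log2 change -0.48, SE 0.082, adjusted p = 0.000722). Per kilobase it was the most abundant member in Tconv, at 899.8 ± 18.4 CPM per kb, and in Eos+ and Eos- Tregs it stood beside Cd2, at 647 ± 39.5 and 821 ± 73.6 against 672 ± 30.1 and 846 ± 56.6 CPM per kb.

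Fyn, the other Src family kinase of the complex, was 637, 643, 657 and 606 CPM over the Eos+ libraries, 855, 824, 820.1 and 793 over the Eos- libraries and 907, 808, 896 and 870.1 over Tconv. Its groups were placed as for Lck, with Eos+ Tregs below both others, at 1.29-fold lower than Eos- Tregs (log2 change -0.37, SE 0.065, adjusted p = 0.00182) and 1.37-fold lower than Tconv (log2 change -0.45, SE 0.065, adjusted p = 0.000163). The ratio of Lck to Fyn counts overlapped between the groups, at 2.71 to 3.15 in Eos+ Tregs, 2.68 to 3.11 in Eos- Tregs and 2.9 to 3.21 in Tconv. Prkcq, which encodes protein kinase C theta, the link to NF-kB in T cells, was 342, 341, 367 and 363 CPM over the Eos+ libraries, 525, 542, 534 and 528 over the Eos- libraries and 533, 484, 532 and 516 over Tconv. Its spread within groups was among the smallest of the members, and Eos+ Tregs were 1.51-fold lower than Eos- Tregs (log2 change -0.59, SE 0.061, adjusted p = 4.83e-05) and 1.46-fold lower than Tconv (log2 change -0.55, SE 0.061, adjusted p = 2.15e-05). Eos- Tregs and Tconv overlapped, with a change of 0.044 (adjusted p = 0.705).

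Zap70, the kinase that docks on the phosphorylated chains, was 265, 228, 215 and 208 CPM over the Eos+ libraries, 257, 207, 164 and 197 over the Eos- libraries and 262, 234, 250.1 and 275 over Tconv. All 3 groups overlapped, and its changes were 0.15 (adjusted p = 0.46) between the Treg groups, -0.16 (adjusted p = 0.379) in Eos+ Tregs against Tconv and -0.31 (adjusted p = 0.115) in Eos- Tregs against Tconv. The last was called as lower with the replicate block (adjusted p = 0.0315), without Eos- Treg replicate 1 (adjusted p = 0.0138) and when all 3 libraries numbered 1 were left out (adjusted p = 0.0232). Csk, which switches off Src family kinases by phosphorylating their tails, was 158, 139, 175 and 175 CPM over the Eos+ libraries, 181, 188, 188 and 187 over the Eos- libraries and 220.2, 214, 233 and 215 over Tconv. The Eos+ Treg libraries lay below the Eos- Treg libraries and these below Tconv, with changes of -0.20 (adjusted p = 0.0993) between the Treg groups, -0.45 (adjusted p = 0.000699) in Eos+ Tregs against Tconv and -0.25 (adjusted p = 0.0486) in Eos- Tregs against Tconv. The last call was lost without Eos+ Treg replicate 1, Eos- Treg replicates 1, 2, 3 or 4 or Tconv replicates 1, 2, 3 or 4 (adjusted p = 0.0566 to 0.117). It was also lost when the 3 libraries numbered 1 were left out (adjusted p = 0.144).

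The widest decreases between the Treg groups, those of Pag1 and Themis, were in adaptors. Lat, Grap2, Themis and Pag1 fell in Eos+ against Eos- Tregs, Grb2 rose and Lcp2 did not pass. The windows around the RefSeq starts of Lat and Grap2 are shown because the 2 adaptors bind each other and both fell. Capitals mark the same 4 motifs.
Lat, chr7:126369519-126369818, minus strand: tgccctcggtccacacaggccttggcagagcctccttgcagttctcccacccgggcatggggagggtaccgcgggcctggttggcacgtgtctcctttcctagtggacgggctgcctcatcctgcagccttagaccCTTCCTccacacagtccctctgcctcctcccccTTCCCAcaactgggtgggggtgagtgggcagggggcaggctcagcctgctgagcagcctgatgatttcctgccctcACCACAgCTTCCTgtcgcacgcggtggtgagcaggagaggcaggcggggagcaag
Grap2, chr15:80623233-80623532, plus strand: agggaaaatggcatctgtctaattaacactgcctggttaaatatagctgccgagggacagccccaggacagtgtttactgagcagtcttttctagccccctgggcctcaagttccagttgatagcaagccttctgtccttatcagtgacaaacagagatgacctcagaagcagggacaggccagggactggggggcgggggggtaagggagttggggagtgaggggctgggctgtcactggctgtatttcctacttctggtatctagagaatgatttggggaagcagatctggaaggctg

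In the Lat window AGGAAG was matched at 2 places, TGTGGT and TGGGAA at 1 each, and none of the 4 motifs was found in the Grap2 window. That Grap2 window lies inside the gene model behind the counts, which starts at chr15:80572594, so the start of the model is not covered. Lat, the membrane scaffold that ZAP-70 phosphorylates, was 630.1, 527, 446 and 529 CPM over the Eos+ libraries, 926, 850.3, 687 and 879 over the Eos- libraries and 1111, 933, 915 and 1085 over Tconv. Each Eos+ Treg library was below each Eos- Treg library, and Eos- Tregs and Tconv overlapped. Lat was 1.57-fold lower in Eos+ than in Eos- Tregs (log2 change -0.65, SE 0.121, adjusted p = 0.00277) and 1.9-fold lower than in Tconv (log2 change -0.92, SE 0.121, adjusted p = 8.5e-05). In Eos- Tregs against Tconv the change was -0.28 (adjusted p = 0.157), and adjusted p = 0.00856 with the replicate block.

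Grap2, which encodes Gads, the bridge between LAT and SLP-76, was 35.8, 33.1, 37 and 39.1 CPM over the Eos+ libraries, 60.6, 59.7, 56.6 and 61.6 over the Eos- libraries and 61.9, 69.8, 83.7 and 66.4 over Tconv. The 3 groups did not overlap, in the order Eos+ Tregs, Eos- Tregs and Tconv from the lowest. The closest libraries of Eos- Tregs and Tconv were at 61.6 and 61.9 CPM. Between these 2 groups the log2 change of -0.24 (adjusted p = 0.139) did not pass, nor did it in any of the 21 other fits. Grap2 was 1.64-fold lower in Eos+ than in Eos- Tregs (log2 change -0.72, SE 0.102, adjusted p = 0.000482) and 1.94-fold lower than in Tconv (log2 change -0.96, SE 0.102, adjusted p = 1.54e-05). Lcp2, the gene of SLP-76, was 562 ± 42.6 CPM on average with Eos+, 568 ± 43 with Eos- and 588 ± 21.3 in Tconv. Its groups overlapped in every comparison, with log2 changes from -0.067 to -0.017. LAT and SLP-76 work as partners, and the ratio of Lat to Lcp2 counts was 0.784 to 1.1 in Eos+ Tregs, 1.19 to 1.74 in Eos- Tregs and 1.56 to 1.91 in Tconv, with Eos+ Tregs below both others.

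Themis, a T lineage adaptor needed for positive selection that binds Grb2 and the phosphatase SHP-1, was 84.5, 58.9, 53 and 56.8 CPM over the Eos+ libraries, 159, 162, 118 and 96.5 over the Eos- libraries and 209.6, 283, 189 and 176 over Tconv. The groups did not overlap, with Eos+ Tregs lowest. Themis was 2.11-fold lower in Eos+ than in Eos- Tregs (log2 change -1.08, SE 0.203, adjusted p = 0.00291), 3.39-fold lower than in Tconv (log2 change -1.76, SE 0.206, adjusted p = 3.29e-05), and 1.6-fold lower in Eos- Tregs than in Tconv (log2 change -0.68, SE 0.200, adjusted p = 0.0379). The last call was lost without Eos- Treg replicates 3 or 4 or Tconv replicates 1 or 2 (adjusted p = 0.0733 to 0.118). Themis transcripts are abundant in double-positive thymocytes, and within each group the library with the most Themis was one of those numbered 1 or 2, where the double-positive markers were high. The part of such cells in the changes of Themis was not tested.

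Pag1, also called Cbp, a membrane adaptor that recruits Csk, was 11.8, 13.6, 16.3 and 21.6 CPM over the Eos+ libraries, 35.3, 33.3, 33 and 38.2 over the Eos- libraries and 41.8, 43.6, 65.9 and 64.4 over Tconv. Again no group overlapped with another. Pag1 was 2.21-fold lower in Eos+ than in Eos- Tregs (log2 change -1.14, SE 0.200, adjusted p = 0.00191) and 3.4-fold lower than in Tconv (log2 change -1.77, SE 0.203, adjusted p = 2.85e-05), and in Eos- Tregs against Tconv it was -0.63 on the log2 scale (adjusted p = 0.0509, and 0.0115 with the replicate block), a change that passed without Eos+ Treg replicates 1 or 4 or Tconv replicate 1 (adjusted p = 0.0275 to 0.0397). It also passed with DESeq2 (adjusted p = 0.0159), limma-voom (0.0298), the 2 groups alone (0.0308), library totals as the scaling (0.0384) and the 3 libraries numbered 1 left out (0.0328). Per kilobase Pag1 was among the least abundant members, at 1.65 ± 0.446 CPM per kb in Eos+ Tregs. Grb2, the general adaptor that carries Sos1, was 171, 191, 201 and 199 CPM over the Eos+ libraries, 157, 166, 169 and 164 over the Eos- libraries and 173, 168, 178 and 165 over Tconv. Every Eos+ Treg library lay above every Eos- Treg library, by 1.16-fold (log2 change 0.22, SE 0.066, adjusted p = 0.0405), yet the call was lost without Eos+ Treg replicates 2, 3 or 4, Eos- Treg replicates 1, 2, 3 or 4 or Tconv replicates 1, 2, 3 or 4 (adjusted p = 0.0503 to 0.105), and with the 2 groups alone (adjusted p = 0.119). Against Tconv the change in Eos+ Tregs was 0.15 (adjusted p = 0.101), which passed without Eos+ Treg replicate 1 (adjusted p = 0.033). B cells also transcribe Grb2, and their markers were high in Eos+ Tregs, a part that was not tested.

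**Figure D3:**
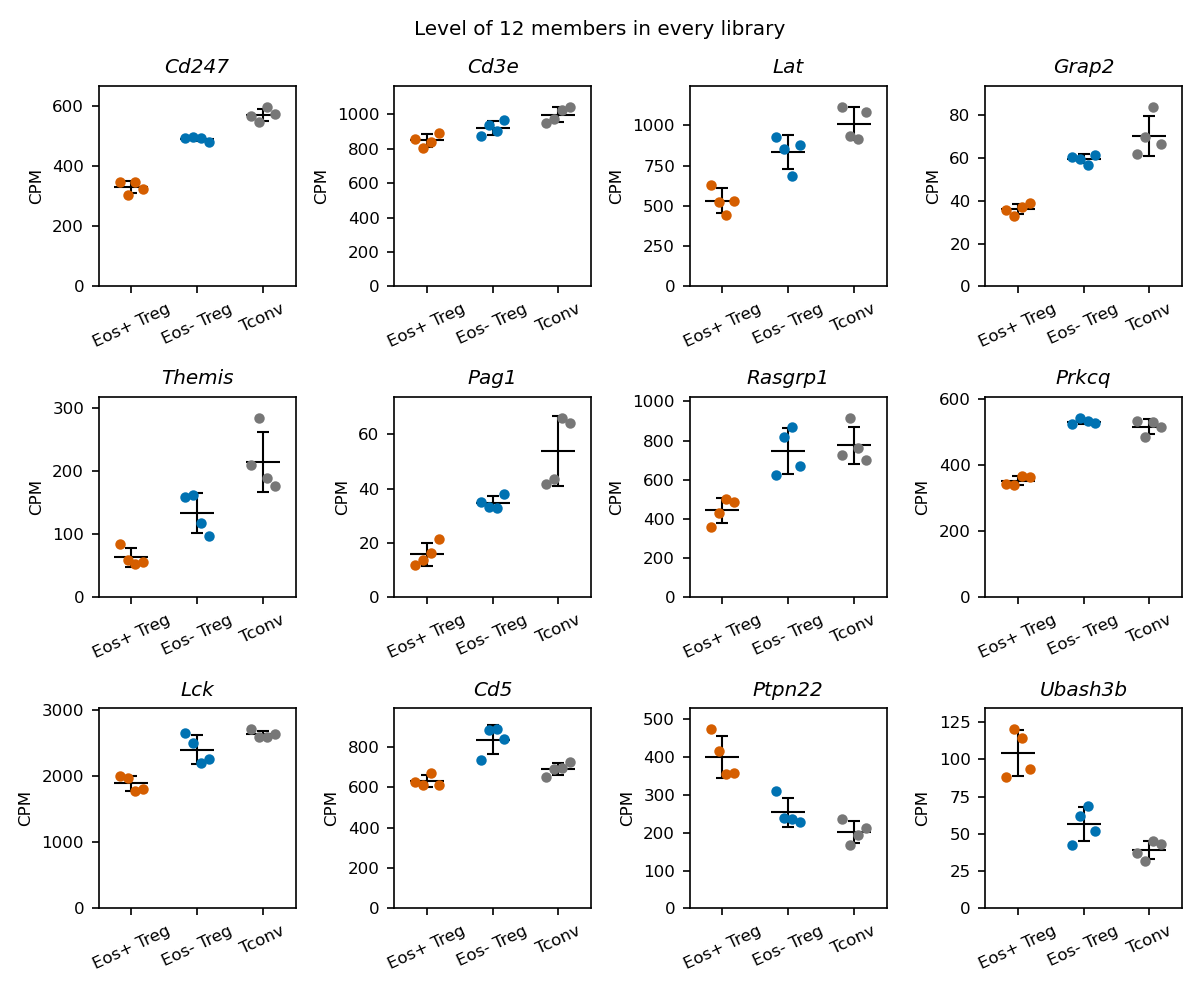
CPM of 12 members (y axis, from 0) in each library of the 3 groups (x axis), with points in the order of replicates 1 to 4 and bars for the mean and SD (n = 4). Cd247, Grap2, Themis and Pag1 step up from Eos+ Tregs to Eos- Tregs to Tconv without overlap, Cd5 is highest in Eos- Tregs, and Ptpn22 and Ubash3b are highest in Eos+ Tregs. For Grap2 and Pag1 the change between Eos- Tregs and Tconv did not pass in the main fit.

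Of the enzyme and exchange factor genes, Rasgrp1 fell in Eos+ Tregs and the others did not pass in any of the 3 comparisons. Rasgrp1, the diacylglycerol-bound exchange factor that charges Ras in thymocytes, was 362, 431, 504 and 486 CPM over the Eos+ libraries, 625, 820.3, 868 and 670.5 over the Eos- libraries and 728, 913, 762 and 704 over Tconv. The Eos+ Treg libraries lay below all others, and Eos- Tregs and Tconv overlapped. Rasgrp1 was 1.67-fold lower than in Eos- Tregs (log2 change -0.74, SE 0.134, adjusted p = 0.00225) and 1.74-fold lower than in Tconv (log2 change -0.80, SE 0.134, adjusted p = 0.000549). Sos1, the Grb2-bound exchange factor, was far lower in abundance, at 2.25 ± 0.405 CPM per kb in Eos+ Tregs against 79.6 ± 11.4 for Rasgrp1, and its change between the Treg groups was -0.32 (adjusted p = 0.252). Plcg1, which makes diacylglycerol and inositol trisphosphate, was 366 ± 74.9 CPM on average with Eos+, 378 ± 54.7 with Eos- and 396 ± 33.8 in Tconv, with adjusted p from 0.601 to 0.875 over the 3 comparisons. Its exons share 379 bases with Zhx3 on the other strand. Vav1, the exchange factor for Rac, was 415 ± 40.5, 478 ± 39.2 and 495 ± 43.8 CPM. Its libraries in Eos+ Tregs lay below those of Tconv, with a change of -0.25 (adjusted p = 0.056) that passed with the replicate block (adjusted p = 0.00224) and without Eos+ Treg replicate 1, Eos- Treg replicates 1, 3 or 4 or Tconv replicate 4 (adjusted p = 0.0437 to 0.0473). DESeq2 (adjusted p = 0.0394), limma-voom (0.0438) and library totals as the scaling (0.0424) also called it, and with the block it was also called between the Treg groups (adjusted p = 0.0131).

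Bcl10 and Malt1, which pass the signal of protein kinase C theta to NF-kB, did not pass in any comparison. Bcl10 was 73.4 ± 14.3 CPM on average with Eos+, 85.9 ± 10.8 with Eos- and 76 ± 4.26 in Tconv. Malt1 was 62.5 ± 11.4, 64.6 ± 7.47 and 78.1 ± 7.4 CPM, with a change of -0.32 (adjusted p = 0.0887) in Eos+ Tregs against Tconv that passed with the replicate block (adjusted p = 0.022) and without Eos+ Treg replicate 3 (adjusted p = 0.0221). All groups overlapped for both genes.

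The negative regulators moved in both directions. In Eos+ against Eos- Tregs, Ptpn22 and Ubash3b rose, the diacylglycerol kinases Dgka and Dgkz fell, and Ptpn6, Ubash3a and Cblb did not pass. Ptpn22, the phosphatase that dephosphorylates Lck and ZAP-70, was 472, 415, 356 and 358 CPM over the Eos+ libraries, 310.0, 238, 236 and 228 over the Eos- libraries and 236, 167, 193 and 212 over Tconv. All Eos+ Treg libraries lay above those of the other groups, and Eos- Tregs and Tconv overlapped. Ptpn22 was 1.58-fold higher in Eos+ than in Eos- Tregs (log2 change 0.66, SE 0.133, adjusted p = 0.0044) and 1.98-fold higher than in Tconv (log2 change 0.99, SE 0.133, adjusted p = 0.000106). In Eos- Tregs against Tconv it was 0.33 (adjusted p = 0.126), with adjusted p = 0.0201 under the replicate block.

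Ubash3b, also called Sts-1, a phosphatase that acts on ZAP-70 and related kinases, was 88.2, 120.1, 114 and 93.9 CPM over the Eos+ libraries, 42.7, 62.1, 69 and 52.1 over the Eos- libraries and 37, 31.7, 45 and 43 over Tconv. Eos+ Tregs were above both other groups without overlap. Ubash3b was 1.84-fold higher in Eos+ than in Eos- Tregs (log2 change 0.88, SE 0.162, adjusted p = 0.00255) and 2.66-fold higher than in Tconv (log2 change 1.41, SE 0.164, adjusted p = 3.16e-05). Its change in Eos- Tregs against Tconv was 0.53 (adjusted p = 0.0453), a call that was lost without Eos+ Treg replicates 2, 3 or 4, Eos- Treg replicates 2, 3 or 4 or Tconv replicates 1, 2 or 4 (adjusted p = 0.0509 to 0.135), and neither limma-voom (adjusted p = 0.0527) nor the fit of the 2 groups alone (0.0574) made it. Ubash3a, the T cell relative with weak phosphatase activity, was 400.5, 326, 325 and 339.6 CPM over the Eos+ libraries, 376, 358, 402 and 375 over the Eos- libraries and 323, 292, 317 and 266 over Tconv. The Treg groups overlapped, and Eos- Tregs were above Tconv without overlap, with a change of 0.34 (adjusted p = 0.0208), a call that was lost without Eos- Treg replicate 3 or Tconv replicates 2 or 4 (adjusted p = 0.05 to 0.0622). Eos+ Tregs were also above Tconv without overlap, where the change of 0.21 (adjusted p = 0.0809) passed only with the replicate block (adjusted p = 0.0388) among the 21 other fits. The ratio of Ubash3b to Ubash3a counts was 0.22 to 0.369 in Eos+ Tregs, 0.114 to 0.173 in Eos- Tregs and 0.108 to 0.162 in Tconv.

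Cblb, a ubiquitin ligase that sets the need for CD28 help, was 170.0, 164, 195 and 266 CPM over the Eos+ libraries, 186, 235, 295 and 287 over the Eos- libraries and 108, 104, 141 and 135 over Tconv. Both Treg groups were above Tconv without overlap, 1.63-fold higher in Eos+ Tregs (log2 change 0.70, SE 0.179, adjusted p = 0.00917) and 2.06-fold higher in Eos- Tregs (log2 change 1.04, SE 0.179, adjusted p = 0.00184). The Treg groups overlapped, with a change of -0.34 (adjusted p = 0.234) that was called with the replicate block (adjusted p = 0.0295). Ptpn6, the gene of the phosphatase SHP-1, was 427, 498, 509 and 381 CPM over the Eos+ libraries, 651, 574, 492 and 527 over the Eos- libraries and 791, 742, 786 and 798 over Tconv. Both Treg groups were below Tconv without overlap, with log2 changes of -0.78 (adjusted p = 0.000114) in Eos+ Tregs and -0.47 (adjusted p = 0.00945) in Eos- Tregs, and the change between them was -0.31 (adjusted p = 0.0688), which passed without Eos- Treg replicate 3 (adjusted p = 0.0438) and with DESeq2 (adjusted p = 0.0382). SHP-1 is also made by B and myeloid cells.

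The diacylglycerol kinases remove the lipid that recruits RasGRP1 and protein kinase C theta. Dgka was 878 ± 98.7 CPM on average with Eos+, 1144 ± 65.2 with Eos- and 962 ± 138 in Tconv, and Dgkz was 484 ± 66.1, 618 ± 52.2 and 565 ± 16.5 CPM. Between the Treg groups Dgka changed by -0.38 (adjusted p = 0.0309) and Dgkz by -0.35 (adjusted p = 0.0266). The Dgka call was lost without Eos+ Treg replicates 1, 3 or 4 or Eos- Treg replicates 2, 3 or 4 (adjusted p = 0.0514 to 0.0854) and the Dgkz call without Eos+ Treg replicates 1 or 4 or Eos- Treg replicates 2, 3 or 4 (adjusted p = 0.0587 to 0.0789). With the 2 groups alone Dgkz was not called (adjusted p = 0.0523), and Dgka was not called without the 3 libraries numbered 1 (adjusted p = 0.0691). The Dgkz libraries of the Treg groups overlapped. Dgkz in Eos+ Tregs against Tconv (-0.22, adjusted p = 0.106) passed with the replicate block (adjusted p = 0.0263) and without Eos+ Treg replicate 3 (adjusted p = 0.047). Dgka in Eos- Tregs against Tconv (0.25, adjusted p = 0.156) passed with the block (adjusted p = 0.0497) and without Tconv replicate 3 (adjusted p = 0.0361). The ratio of Dgka to Rasgrp1 counts, the enzyme against the factor that share a lipid, was 1.79 to 2.27 in Eos+ Tregs, 1.37 to 1.77 in Eos- Tregs and 1.0 to 1.53 in Tconv, with Eos+ Tregs above both others.

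Pairs of genes that act on the same step show where the balance of transcripts differed. Csk and Ptpn22 both restrain Lck, and their count ratio was 0.335 to 0.493 in Eos+ Tregs, 0.583 to 0.822 in Eos- Tregs and 0.932 to 1.28 in Tconv, without overlap between any of the groups. The ratio of Grap2 to Grb2, adaptors of 1 family, was 0.174 to 0.209, 0.335 to 0.386 and 0.358 to 0.469 in the same order, with Eos+ Tregs apart from both other groups. The pairs were chosen with the changes of their members known, and these ratios carry no test.

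**Figure D4:**
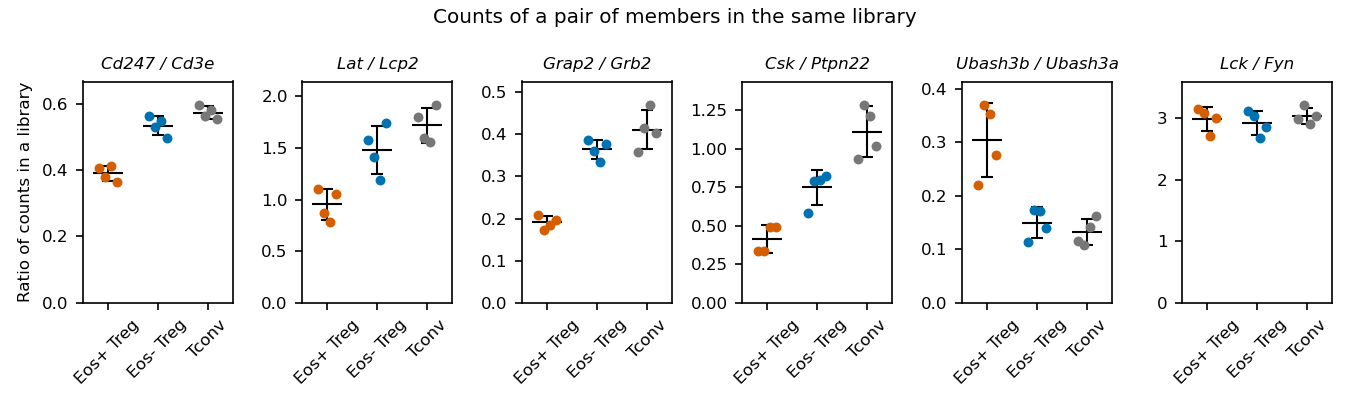
Ratio of the counts of a pair of members in the same library (y axis, from 0) for 6 pairs, by group (x axis), with 4 libraries per group and bars for the mean and SD. The ratios of Cd247 to Cd3e, Lat to Lcp2, Grap2 to Grb2 and Csk to Ptpn22 are lowest in Eos+ Tregs without overlap, Ubash3b to Ubash3a is highest there, and Lck to Fyn overlaps between all groups.

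The rest of the pathway was read from 4 lists of other genes. Over all tested genes 6.45% were lower and 9.82% higher in Eos+ against Eos- Tregs, 13% and 17.3% in Eos+ Tregs against Tconv, and 5.89% and 8.76% in Eos- Tregs against Tconv, and each list is read beside these shares. Of 42 other proximal genes, 6 fell and 5 rose in Eos+ against Eos- Tregs, 15 fell and 7 rose in Eos+ Tregs against Tconv, and 7 fell and 3 rose in Eos- Tregs against Tconv. Their median log2 change was -0.12, -0.18 and -0.17 in that order. As lower and higher shares of the list these were 14.3% and 11.9%, 35.7% and 16.7%, and 16.7% and 7.14%. With the replicate block the counts in the 3 comparisons, in the same order, were 9 lower and 8 higher, 18 lower and 9 higher, and 13 lower and 3 higher. With 1 library left out they were 5 to 8 lower and 4 to 7 higher, 11 to 16 lower and 6 to 8 higher, and 4 to 8 lower and 2 to 4 higher. Txk, a Tec family kinase, was 74.5 ± 23.1 CPM on average with Eos+, 206 ± 14.7 with Eos- and 241 ± 17.7 in Tconv, 2.76-fold lower between the Treg groups (adjusted p = 0.000186). Rasgrp2, which charges Rap1, was 3.13-fold lower in Eos+ than in Eos- Tregs, at 63.6 ± 17.1 against 199 ± 15.7 CPM (adjusted p = 4.05e-05). Sla, an adaptor that lowers receptor levels, stood at 506 ± 22.9 against 289.8 ± 40.1 CPM, 1.74-fold higher (adjusted p = 0.000813), and Dok1, an inhibitory adaptor, was 1.86-fold higher (adjusted p = 0.00142). Sh2d1a, the gene of SAP, which couples SLAM receptors to Fyn, was 1.96-fold higher (adjusted p = 0.00343). Pik3r1, the regulatory subunit of PI3 kinase, was 1.53-fold lower (adjusted p = 0.00622). Pik3r1 is also on the list of PI3 kinase and Akt genes below, so the lists overlap and its call counts in both. Nedd4, a ubiquitin ligase, was 12.2 ± 4.89 CPM in Eos+ and 17.7 ± 14.1 in Eos- Tregs against 85.4 ± 12.3 in Tconv (adjusted p = 0.000567 and 0.00527).

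Further down, the calcium and NFAT list of 25 genes had 4 higher and 1 lower in Eos+ against Eos- Tregs, with Orai3, a calcium channel subunit, 2.34-fold higher (adjusted p = 0.000924) and Orai2 1.51-fold higher (adjusted p = 0.0133). Against Tconv it had 5 higher and 6 lower in Eos+ Tregs and 1 and 4 in the Eos- group. As lower and higher shares of the list these were 4% and 16%, 24% and 20%, and 16% and 4%. With the replicate block the counts in the 3 comparisons, in the same order, were 5 lower and 6 higher, 10 lower and 6 higher, and 5 lower and 1 higher. With 1 library left out they were 0 to 5 lower and 4 to 5 higher, 6 to 7 lower and 4 to 6 higher, and 3 to 4 lower and 1 higher. Stim2, a sensor of calcium stores, was 1.6-fold higher in Eos+ Tregs and 1.71-fold higher in Eos- Tregs than in Tconv (adjusted p = 0.000194 and 0.000222). Camk4 was the 1 gene of the list called lower between the Treg groups. Among the genes called lower than in Tconv were Calm3, Itpr1 and Stim1 in Eos+ Tregs, and Itpr1, Orai2 and Calm3 in Eos- Tregs. Of 21 Ras and ERK genes, 3 fell and 1 rose between the Treg groups, 3 fell and 2 rose in Eos+ Tregs against Tconv, and 3 fell and 3 rose in Eos- Tregs. As lower and higher shares of the list these were 14.3% and 4.76%, 14.3% and 9.52%, and 14.3% and 14.3%. With the replicate block the counts in the 3 comparisons, in the same order, were 4 lower and 3 higher, 3 lower and 3 higher, and 4 lower and 4 higher. With 1 library left out they were 1 to 3 lower and 1 to 2 higher, 3 to 4 lower and 2 higher, and 2 to 3 lower and 3 to 4 higher. Nras was 65 ± 3.4 CPM on average with Eos+, 93.1 ± 4.36 with Eos- and 123 ± 4.51 in Tconv, 1.43-fold lower between the Treg groups (adjusted p = 0.000293).

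Of 22 PI3 kinase and Akt genes, 6 fell and 1 rose in Eos+ against Eos- Tregs, 9 and 3 against Tconv, and 3 and 2 in Eos- Tregs against Tconv. As lower and higher shares of the list these were 27.3% and 4.55%, 40.9% and 13.6%, and 13.6% and 9.09%. With the replicate block the counts in the 3 comparisons, in the same order, were 8 lower and 2 higher, 9 lower and 3 higher, and 3 lower and 2 higher. With 1 library left out they were 4 to 7 lower and 1 to 3 higher, 7 to 9 lower and 1 to 3 higher, and 2 to 4 lower and 2 higher. Phlpp1, a phosphatase that acts on Akt, was 157 ± 34.6 CPM on average with Eos+, 43.9 ± 18 with Eos- and 6.7 ± 0.777 in Tconv, 3.57-fold higher between the Treg groups (adjusted p = 0.000607). Akt2 was 1.44-fold lower (adjusted p = 0.000695), and Pik3ip1, an inhibitor of PI3 kinase, 1.73-fold lower (adjusted p = 0.00885).

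**Figure D5:**
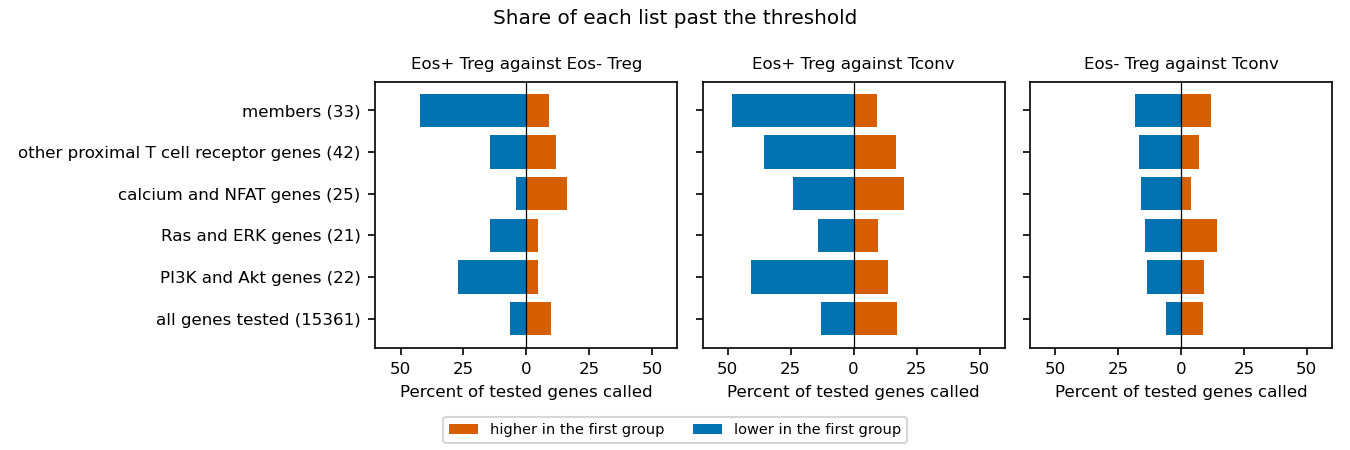
Share of the tested genes of each list (number in brackets) that passed an adjusted p of 0.05 in the 3 comparisons, to the right where higher and to the left where lower in the first group named, beside the share over all 15361 tested genes. In the left panel the members have the longest bar to the left, 42.4% beside 6.45% of all tested genes.

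Of 15 genes that receptor signalling is known to induce, 4 rose in Eos+ against Eos- Tregs, 7 had a log2 change below 0, and the median was 0.036. Spry1, a feedback inhibitor, was 107 ± 16.2 CPM on average with Eos+, 46.7 ± 8.95 with Eos- and 8.98 ± 2.94 in Tconv, 2.3-fold higher between the Treg groups (adjusted p = 0.00206). Nr4a2 was 1.97-fold higher and Irf4 1.88-fold higher (adjusted p = 0.0135 and 0.00963). Named after their values were seen, the relatives Nr4a1 and Nr4a3 had changes of -0.59 (adjusted p = 0.0687) and -0.73 (adjusted p = 0.276), and the phosphatases Dusp2 and Dusp5 of -0.63 (adjusted p = 0.0502) and -0.46 (adjusted p = 0.471). By edgeR 0 of the 15 were lower, DESeq2 called 2 and limma-voom 1 as lower, and 6 of 15 had an unadjusted p under 0.05 in either direction. Against Tconv 5 rose in Eos+ Tregs and 5 in the Eos- group. As lower and higher shares of the list these were 0% and 26.7%, 0% and 33.3%, and 0% and 33.3%. Over all tested genes the shares were 6.45% and 9.82%, 13% and 17.3%, and 5.89% and 8.76%. The replicate block called 1486 of all tested genes lower and 2012 higher, 2530 and 3041, and 1564 and 1736. For the 15 genes the block counts in the 3 comparisons, in the same order, were 4 lower and 4 higher, 0 lower and 5 higher, and 1 lower and 8 higher. With 1 library left out they were 0 to 2 lower and 3 to 4 higher, 0 to 1 lower and 5 higher, and 0 lower and 4 to 5 higher. The list of 15 kinases and adaptors of other receptors in B and myeloid cells, which also holds the receptor chain Cd79b, had 3 higher and 0 lower in Eos+ against Eos- Tregs. That is 20% of the list higher, beside 9.82% of all tested genes. A log2 change above 0 was found for 13 of the 15, with a median of 1.80 over the list. Among the 3 was Cd79b, a chain of the B cell receptor, at 38.7 ± 11.2 against 5.48 ± 3.96 CPM (adjusted p = 0.00151). Cd79b is also among the 10 B cell markers given above, so that list and this one overlap and are not separate observations. Against Tconv Cd79b was higher and Prkcb lower in Eos+ Tregs, 6.67% of the list in each direction, beside 17.3% and 13% of all tested genes. In Eos- Tregs against Tconv edgeR called 0 of the 15, DESeq2 1 and limma-voom 3 as lower, and 4 had an unadjusted p under 0.05. There 14 of the 15 had a log2 change below 0, with a median of -1.60 over the list. With the replicate block the counts in the 3 comparisons, in the same order, were 0 lower and 6 higher, 1 lower and 1 higher, and 6 lower and 0 higher. With 1 library left out they were 0 lower and 1 to 8 higher, 1 lower and 1 to 2 higher, and 0 to 7 lower and 0 higher. Without Eos- Treg replicate 1 the count between the Treg groups was 8 higher and that in Eos- Tregs against Tconv 7 lower, and without Eos+ Treg replicate 1 it was 1 higher between the Treg groups.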

How the data were processed

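Per the labels' protocols, RNA from sorted thymic cells was reverse transcribed from 1 ng by template switching, and the cDNA was tagmented. The authors deposited 1 table of expected counts by gene, a unit of RSEM. The submitters' processing notes name mm10 and, as tools, RSEM 1.3.1, STAR 2.7.0f and cutadapt 1.18. For their parameters and the annotation the sources used here say nothing, and all 55450 IDs matched GENCODE M21.

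After rounding, edgeR 4.0.16 under R 4.3.3 tested the counts (quasi-likelihood F test, TMM, filterByExpr, 1 mean per group over 12 libraries), with two-sided p-values adjusted by Benjamini-Hochberg over 15361 genes and a threshold of 0.05. The standard error of a log2 change is its size over the root of F. Levels per kilobase divide CPM by merged exon length. The test was also run on simulated counts, drawn independently for each library with the spread that edgeR itself had estimated. That run does not cover the pairing of libraries described below. It shares the model of the test, so it cannot show that the model suits these data. Members and lists were chosen with earlier results of these data known. Every member is accounted for. Values in all libraries are given for the CD3 chains, Cd4, Lck, Zap70, Fyn, Lat and, per comparison, up to 6 called members per direction whose groups did not overlap. From other lists the text names some of up to 3 called genes per direction with a mean of 10 CPM or more.

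Same-numbered libraries of different groups carry a shared tag in their names, and their deviations from the group means correlated in all 12 pairs (r = 0.14 to 0.32, against -0.23 to 0.070 in 36 other pairs), so the numbers were taken to pair the libraries. The main fit has no term for this pairing, and block results are given where they change a call. With the block 20, 23 and 18 members were called in the 3 comparisons, in place of 17, 19 and 10. Over all tested genes the block called 3498, 5571 and 3300, in place of 2500, 4655 and 2249. Replicates differed by more than sampling noise (chi-square per degree of freedom 25.4 to 80.9). Of the members 10 share exon positions with another gene, and 2, Cd247 and Plcg1, with one that reached 5 CPM. DESeq2 1.42.0, limma-voom (limma 3.58.1), other scalings, no filter, fits of 2 groups, a 1.2-fold threshold and left-out libraries were the alternatives. Scaling by library totals alone was chosen after seeing the data. Some items are not reported here.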

Additional observations from a re-analysis of the deposited data

Results flagged for a closer look

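In 4 of 99 groups of 4 libraries, 1 library of a member stood far from the other 3, where chance gives about 5. Cd3d in Tconv replicate 4 was 753 CPM against at most 626 in the other Tconv libraries. Sos1 in Tconv replicate 3 was 38.4 CPM against at most 27.2. Ptpn22 in Eos- Treg replicate 1 was 310.0 CPM against at most 238, and Csk in the same library was 181 CPM against at least 187.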

How the results depend on the processing

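Of the 17 members called between the Treg groups, 9 passed in all 21 other fits (Cd247, Lat, Grap2, Themis, Ptpn22, Pag1, Ubash3b, Prkcq and Rasgrp1), as did 16 of 19 in Eos+ Tregs against Tconv and 2 of 10 (Cd4 and Cblb) in Eos- Tregs against Tconv. No call of a member changed direction in them. Against a 1.2-fold change in place of no change, 9 members were called in Eos+ against Eos- Tregs, 7 of them lower, and 2 in Eos- Tregs against Tconv, 1 higher and 1 lower, with 1482 and 1239 of all genes in place of 2500 and 2249. Without a filter on low counts, 6 members were called in Eos- Tregs against Tconv, 2 of them higher, and with the replicate block 18, of which 8 were higher and 10 lower. The block ended no call of a member. Any 1 library left out gave 14 to 16 called members between the Treg groups (12 to 14 lower, 2 to 3 higher), 18 to 21 in Eos+ Tregs against Tconv (15 to 18 lower, 3 to 4 higher) and 4 to 11 in Eos- Tregs against Tconv (3 to 7 lower, 1 to 5 higher), with 1910 to 2936, 3882 to 4947 and 1574 to 2884 of all genes. The cause of these moves was not tested. DESeq2, limma-voom, the other scalings, fits of 2 groups and leaving out the libraries numbered 1 kept each count of called members within 1.5 times its value. Every member had at least 378 counts in each library. For the calcium and NFAT genes named as lower, the other fits are not given. Of the remaining other genes named, Orai2 between the Treg groups and Prkcb in Eos+ Tregs against Tconv lost their calls against a 1.2-fold change, and the rest kept theirs in all 21 fits.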
